A study of Mus musculus with 69 samples.

Results

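A set of 10 genes of activated macrophages and of their lysosomes was followed in mouse lung after a single instillation of nano-TiO2. The genes were Aif1, Trem2, Gpnmb, Ctsk, Lgals3, Ms4a6d, Ms4a7, Igf1, Apoe and Itgax. They were chosen by name, with earlier results of these data known, and read as all probes whose accession maps to a listed RefSeq symbol. The shares of all genes printed beside their counts below give scale and are no test of the set. All 10 genes were found, with 15 probes, among the 18660 gene symbols tested on the array.

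Female C57BL/6 mice, 5 to 7 weeks old when supplied and kept for 1 to 3 weeks before exposure, were given 1 of 2 titanium dioxide nanomaterials (NMs), NRCWE-025 or NRCWE-030, into the trachea. The doses were 18, 54 or 162 µg in a vehicle of 2% serum in water, and control mice were given the vehicle only. RNA of a small frozen piece of the lung of each mouse was taken 24 h (day 1) or 28 days later. It was labelled with Cy5 and set against a commercial mouse reference RNA in Cy3 on 69 arrays, 1 per mouse, with no dye swap. The 14 groups held 5 arrays each, except NRCWE-025 at 162 µg on day 28, which held 4. Both NMs of a day shared the same 5 vehicle controls, so their comparisons with control are not independent. All values below are log2 ratios of lung to reference, and a difference of 1 on this scale is a doubling. In the lung channel the share of spots well above background ran from 49.1% to 72.8% (median 62.1%). The number of arrays limits the precision. The p-values measure the spread between arrays, in which mouse, piece of lung and hybridisation cannot be told apart. The arrays lay on 19 slides and were scanned on 11 days, with no block for either in the main fits.

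Macrophages take up particles into phagosomes, which fuse with lysosomes, where proteases and lipid-handling proteins break down what can be broken down. Poorly soluble particles such as titanium dioxide stay in these cells for a long time. Trem2 is a surface receptor for lipids that signals through the adaptor Tyrobp, and cells in which it is active are known for high levels of Gpnmb, Apoe, Lgals3 and Itgax in brain, fat and atherosclerotic artery as well as in lung.

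The members fall into 4 roles. Aif1 (also Iba1) is an actin-binding protein of the macrophage cytoplasm, used as a marker of activated macrophages and microglia. At the cell surface lie Trem2, the membrane-spanning proteins Ms4a6d and Ms4a7, and Itgax (CD11c), the integrin subunit of dendritic cells and alveolar macrophages. Ctsk (cathepsin K, a protease that cleaves collagen) and Gpnmb (a glycoprotein of the lysosomal and plasma membrane) belong to the lysosome, and Lgals3 (galectin-3) is a sugar-binding lectin that gathers on damaged lysosomes. Apoe, a lipid carrier, and Igf1, a growth factor, are secreted. In whole lung, more cells of a type and more RNA per cell cannot be told apart.

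The promoters of 3 members are shown because Aif1 and Trem2 rose together on day 1 and Gpnmb moved with Trem2 across the arrays. They are the 250 bases before the RefSeq start (GRCm38.p6), read 5′ to 3′ on the strand of the gene, with motif matches in capitals. Aif1 lies at chr17:35176053-35176302 on the minus strand, Trem2 at chr17:48346151-48346400 and Gpnmb at chr6:49036268-49036517, both on the plus strand.
Aif1: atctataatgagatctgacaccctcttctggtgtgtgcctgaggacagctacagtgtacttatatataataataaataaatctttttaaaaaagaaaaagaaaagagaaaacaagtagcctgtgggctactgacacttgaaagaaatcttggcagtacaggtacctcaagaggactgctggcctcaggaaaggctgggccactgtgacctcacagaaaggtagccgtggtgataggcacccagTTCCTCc
Trem2: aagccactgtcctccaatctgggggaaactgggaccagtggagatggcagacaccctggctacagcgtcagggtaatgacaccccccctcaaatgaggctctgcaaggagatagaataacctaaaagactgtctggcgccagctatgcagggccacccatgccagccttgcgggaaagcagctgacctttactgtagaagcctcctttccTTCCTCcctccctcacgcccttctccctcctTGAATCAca
Gpnmb: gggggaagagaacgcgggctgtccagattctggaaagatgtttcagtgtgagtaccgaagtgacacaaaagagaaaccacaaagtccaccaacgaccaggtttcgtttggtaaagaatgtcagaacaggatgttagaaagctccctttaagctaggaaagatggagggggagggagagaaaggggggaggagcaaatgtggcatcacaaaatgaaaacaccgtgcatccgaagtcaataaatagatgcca
The motifs searched, on both strands, were 3. GAGGAA is of the type bound by the macrophage factor PU.1. CACGTG is the E-box read by the lysosomal regulators of the MiT/TFE family. TGANTCA is a loose form of the AP-1 site that allows any base in its middle, so a match need not be an AP-1 site. The Aif1 window holds 1 GAGGAA, on the opposite strand. The Trem2 window holds 1 GAGGAA on the opposite strand and 1 TGANTCA with A in its middle. The Gpnmb window holds none of the 3 motifs. Promoters were found for 9 of the 10 genes, in 12 windows; none was found for Ms4a6d. GAGGAA occurred in a window of 5 of the 9 genes (Aif1, Trem2, Ctsk, Igf1 and Apoe) and in 23.3% of all 32851 promoter windows. TGANTCA occurred in 4 of the 9 (Trem2, Ms4a7, Igf1 and Itgax) and in 6.7% of all windows, and CACGTG in none of the 9 and in 6% of all. These matches describe the letters of the windows only.

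On day 1, NRCWE-030 raised 3 of the 10 genes: Aif1 and Ms4a6d rose by about 1 on the log2 scale at 162 µg and Trem2 by 0.65. The question of each comparison was whether the gene changed with dose relative to the controls of the same day. By limma's moderated F-test for dose, with Benjamini-Hochberg adjustment over all genes, these 3 were called at an adjusted p under 0.05, beside 0.954% of all genes. By the contrast of 162 µg with control the same 3 were called, beside 1.69% of all genes in either direction. All 3 were higher, as were 1.22% of all genes. At an unadjusted p under 0.05 there were 7 members by either test, beside 11.2% of all genes for dose and 12.9% at 162 µg. Of the other 7 genes, 6 lay above control on average and Apoe below.

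Aif1 read 0.66, 1.00, 1.21, 1.48 and 1.37 on the 5 control arrays of day 1. It read 1.38, 1.22, 1.09, 1.66 and 1.06 at 18 µg of NRCWE-030, 1.27, 1.48, 1.83, 1.20 and 1.96 at 54 µg, and 2.39, 2.25, 1.98, 2.17 and 2.01 at 162 µg. All 5 arrays at 162 µg lay above the highest control, whereas those at 18 µg lay among the controls but for 1. The rise at 162 µg was 1.01 ± 0.17 (SE; adjusted p = 0.00316, limma), from a control mean of 1.14 ± 0.33 (SD, n = 5) to 2.16 ± 0.17 (SD, n = 5). Means rose at each step of dose, and the F-test for dose gave an adjusted p of 0.0113. Both probes of Aif1 pointed the same way, by 0.78 ± 0.19 and 1.25 ± 0.24 (SE), and 1 of them was called on its own (adjusted p = 0.0144 over 40831 probes, of which 0.862% were called).

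Ms4a6d, measured by 1 probe, read 0.77, 0.91, 0.91, 0.56 and 0.59 on the control arrays. It read 1.35, 1.22, 1.23, 0.77 and 1.61 at 54 µg of NRCWE-030 and 2.04, 1.87, 1.16, 1.95 and 1.83 at 162 µg. At 162 µg all 5 arrays lay above the controls, and replicate 3, at 1.16, lay apart from the other 4. The rise was 1.02 ± 0.18 (SE; adjusted p = 0.00687, limma), and the F-test for dose gave 0.0189. The MS4A genes are a family of close relatives, and whether the probe tells them apart was not tested.

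Trem2 read -1.94, -1.81, -1.94, -1.72 and -1.50 on the control arrays and -1.02, -1.26, -1.15, -1.03 and -1.21 at 162 µg of NRCWE-030. The treated arrays spread over less than 0.3 and none met the controls. The rise was 0.65 ± 0.14 (SE; adjusted p = 0.0175), and the F-test for dose gave 0.0351. The change at 54 µg was -0.01 ± 0.14 (SE; adjusted p = 0.995). At that dose Aif1 and Ms4a6d gave 0.41 ± 0.17 and 0.49 ± 0.18 (SE; adjusted p = 0.459 and 0.399). The call for dose was lost in 13 of 20 fits that each left out 1 array, with adjusted p-values up to 0.114, while the call at 162 µg was not lost in any of the 20. The 2 probes of Trem2 gave 0.64 and 0.66 at 162 µg (adjusted p = 0.0542 and 0.0553 over probes).

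Itgax and Gpnmb also had every array at 162 µg of NRCWE-030 above every control, which made 5 of the 10 genes beside 2.9% of all genes. Gpnmb was read here as the median of 2 probes, 1 of them not well above background on any array. Itgax read 2.99, 3.46, 2.98, 3.33 and 3.31 against control values of 2.39 to 2.88. Its rise of 0.54 ± 0.14 (SE) did not pass (adjusted p = 0.0611). Itgax was called under 5 of 10 alternatives (limma, adjusted p from 0.0177 to 0.32 over them). It was also called in 3 of 20 fits that each left out 1 array. Gpnmb gave 0.38 ± 0.13 (SE; adjusted p = 0.17). Igf1 gave 0.50 ± 0.17, Ms4a7 0.42 ± 0.19, Ctsk 0.56 ± 0.41, Lgals3 0.31 ± 0.20 and Apoe -0.44 ± 0.30 (SE), with adjusted p-values between 0.154 and 0.647. Ctsk had the widest spread of the 10 genes, and its arrays at 162 µg ran from 1.26 to 3.47.

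The 3 calls at 162 µg were lost with a block for slide or scan day. When slide was added as a fixed block 0 of the 10 genes were called at 162 µg, and the same held for scan day (limma). Of the 3 calls for dose only that of Aif1 remained, with an adjusted p of 0.046 with slide and 0.0499 with scan day, against 0.0524 and 0.0522 for Trem2 and 0.111 and 0.108 for Ms4a6d. The values with the slide block were 0.79 for Aif1, 1.16 for Ms4a6d and 0.54 for Trem2 (adjusted p = 0.0945, 0.101 and 0.0754). Ms4a7 came to 0.07 with it (adjusted p = 0.937). On day 1, 2 slides held both a control array and an array at 162 µg of NRCWE-030, and within them Aif1 differed by 0.91 and 0.61, Ms4a6d by 1.47 and 0.57, and Trem2 by 0.69 and 0.36.

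**Figure D1:**
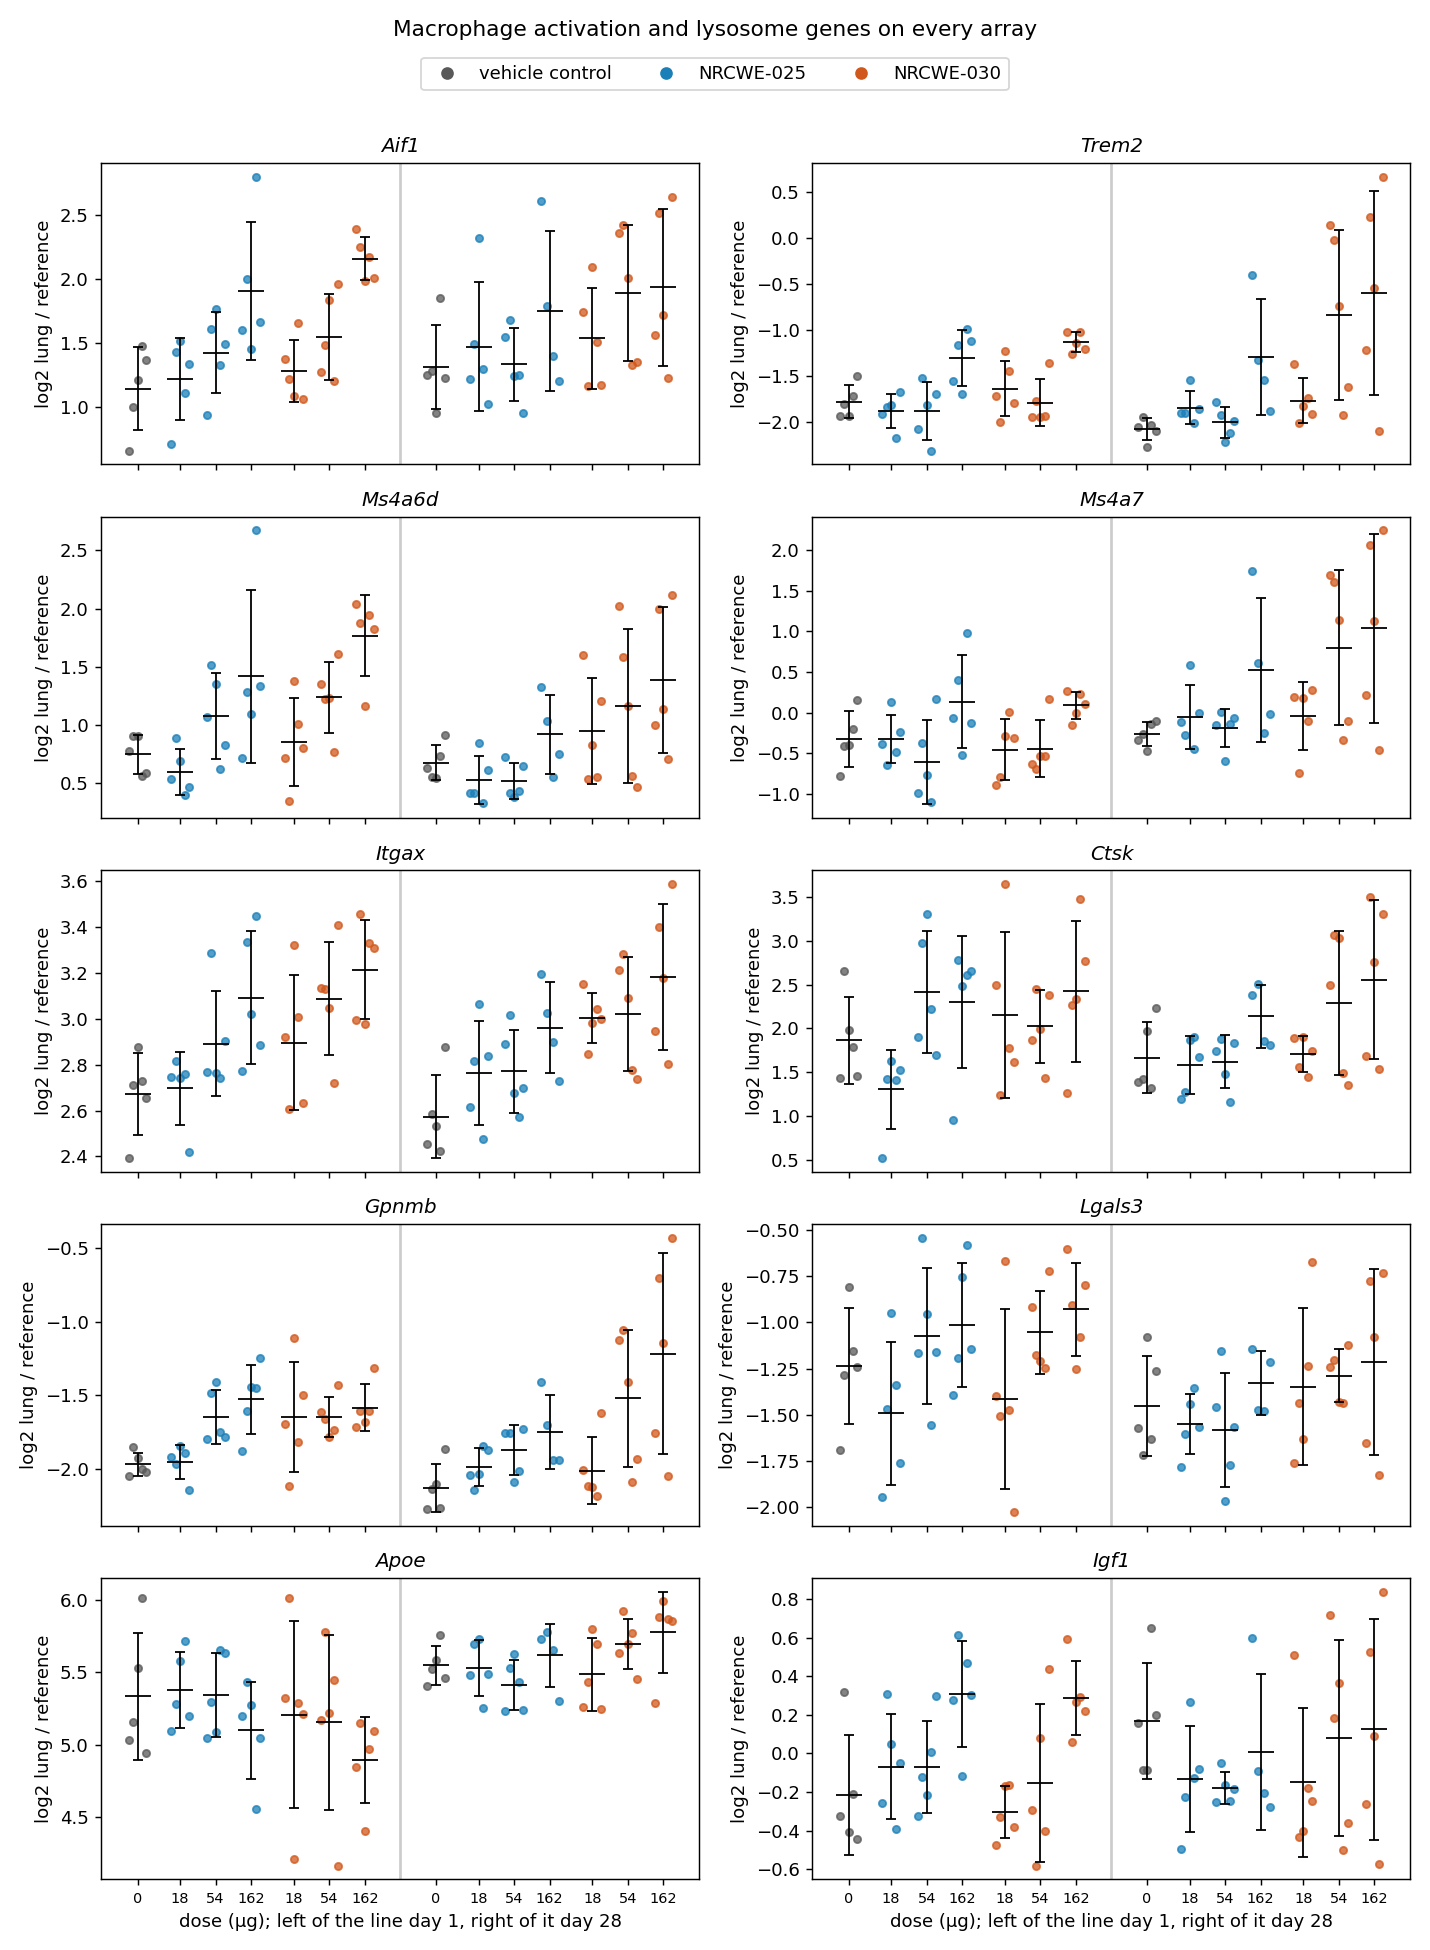
Log2 ratio of lung to reference (vertical axis) for each gene on all 69 arrays, by dose in µg, with day 1 left and day 28 right of the line; points are arrays, bars the group mean and SD. At 162 µg of NRCWE-030 the 5 Aif1, Ms4a6d and Trem2 arrays of day 1 lie above all controls, and on day 28 the Trem2, Ms4a7 and Gpnmb arrays spread widely.

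With NRCWE-025 at 162 µg on day 1, 9 of the 10 genes lay above control and Apoe below, and none passed. There 0 of 10 genes were called with limma, beside 0.209% of all genes, and 6 of 10 had an unadjusted p under 0.05, beside 12.3% of all genes. By the F-test for dose 0 of 10 were called (0.0214% of all genes) and 7 had an unadjusted p under 0.05 (9.97% of all genes). Aif1 read 1.60, 2.00, 1.45, 2.80 and 1.66 at 162 µg, and 4 of these 5 arrays lay above all controls. Its change was 0.76 ± 0.22 (SE; adjusted p = 0.148). Gpnmb, as the median of a bright and a dim probe, came nearest to the threshold, with 0.44 ± 0.10 (SE; adjusted p = 0.0718). The dim probe was not well above background on any array. This value and the Gpnmb calls below thus rest in part on background signal. Igf1 changed by 0.52 ± 0.16 and Trem2 by 0.47 ± 0.15 (SE; adjusted p = 0.167 and 0.177). Replicate 4 read highest in 6 of the 10 genes, and for Ms4a6d it stood at 2.67 against 0.71 to 1.33 on the other 4 arrays. Without replicate 1, which read lowest in 5 genes, 1 gene was called (Gpnmb, adjusted p = 0.0224). With slide as a random block 2 genes were called at 162 µg, Aif1 (0.78, adjusted p = 0.0493) and Gpnmb (0.43, adjusted p = 0.0403), and 1 gene was called for dose.

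At the lower doses of day 1 none of the genes was called: 0 of 10 for NRCWE-025 at 18 µg and at 54 µg (0% of all genes at either dose), and 0 of 10 for NRCWE-030 at 18 µg (0.00536%) and at 54 µg (0.0804%). Under an unadjusted p of 0.05 lay 0 and 1 genes with NRCWE-025 at these doses, then 1 and 4 with the other NM, beside 5.12%, 6.53%, 7.3% and 8.76% of all genes. For Gpnmb, as the median of its 2 probes, every array at 54 µg lay above every control with both NMs, while its bright probe alone did so on 4 of 5 arrays with NRCWE-025 and 3 of 5 with NRCWE-030. The difference was 0.32 ± 0.10 with NRCWE-025 and 0.32 ± 0.13 with NRCWE-030 (SE), and neither passed (adjusted p = 0.524 and 0.465), where 0.541% and 1.06% of all genes had no overlap upwards.

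On day 28 Trem2 and Ms4a7 stood 1.49 and 1.30 above control at 162 µg of NRCWE-030, and the bright one of 2 Gpnmb probes 1.67. The arrays spread widely, and none of the 10 genes passed. With limma 0 of 10 genes were called at 162 µg (0.0965% of all genes), 0 of 10 at 54 µg (0.0536%), 0 of 10 at 18 µg (0.118%) and 0 of 10 by the F-test for dose (0.102%). At an unadjusted p under 0.05 there were 7, 5, 1 and 4 genes, beside 7.51%, 6.52%, 9.02% and 7.06% of all genes. The median change over the 10 genes at 162 µg was 0.67, against -0.002 over all genes. The means of 8 genes rose at each step of dose with NRCWE-030 on day 28, compared with 4 on day 1 and, for NRCWE-025, 3 on day 1 and 2 on day 28. The share of all genes that did so was not measured, and genes that move together across arrays do not count independently.

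Trem2 read -2.06, -1.95, -2.28, -2.03 and -2.10 on the day 28 controls. It read 0.14, -0.03, -0.74, -1.93 and -1.62 at 54 µg of NRCWE-030 and -1.22, 0.23, -0.55, -2.10 and 0.67 at 162 µg. At 54 µg all 5 arrays lay above the controls, 1 of them by under 0.03, and at 162 µg 4 of 5 did, with replicate 4 among the controls. No overlap upwards at 54 µg was seen in 0.793% of all genes. The change was 1.25 ± 0.42 at 54 µg and 1.49 ± 0.42 (SE) at 162 µg, and neither passed (adjusted p = 0.527 and 0.28). With slide as a fixed block the change at 54 µg was 1.94 and was called (adjusted p = 0.0379), and with scan day as a fixed block it was 1.94 as well (adjusted p = 0.0466). At 162 µg the slide block gave 1.78 (adjusted p = 0.0503).

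Ms4a7 followed the same arrays. It read -0.33, -0.26, -0.48, -0.14 and -0.10 on the controls, 1.69, 1.60, 1.15, -0.34 and -0.10 at 54 µg, and 0.22, 2.06, 1.12, -0.46 and 2.24 at 162 µg. The change at 162 µg was 1.30 ± 0.45 (SE; adjusted p = 0.457), and its 2 probes gave 1.36 and 1.24.

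Gpnmb was read by 1 bright and 1 dim probe, and they differed in size of change. The dim probe was not well above background on any of the 69 arrays, and its change at 162 µg was within 0.22 of 0 for both NMs and days. On day 28 the bright probe read -3.85, -3.75, -3.73, -4.00 and -3.47 on the controls and -3.05, -0.98, -1.99, -3.73 and -0.68 at 162 µg of NRCWE-030. Its change was 1.67 ± 0.46 (SE; adjusted p = 0.364 over probes), where the median of both probes gave 0.91 ± 0.25 (adjusted p = 0.264 over genes). The bright probe also gave the larger values elsewhere, with 0.67 (NRCWE-025) and 0.74 (NRCWE-030) at 162 µg on day 1 and 0.79 for NRCWE-025 on day 28. All other 14 probes were well above background on all 69 arrays.

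**Figure D2:**
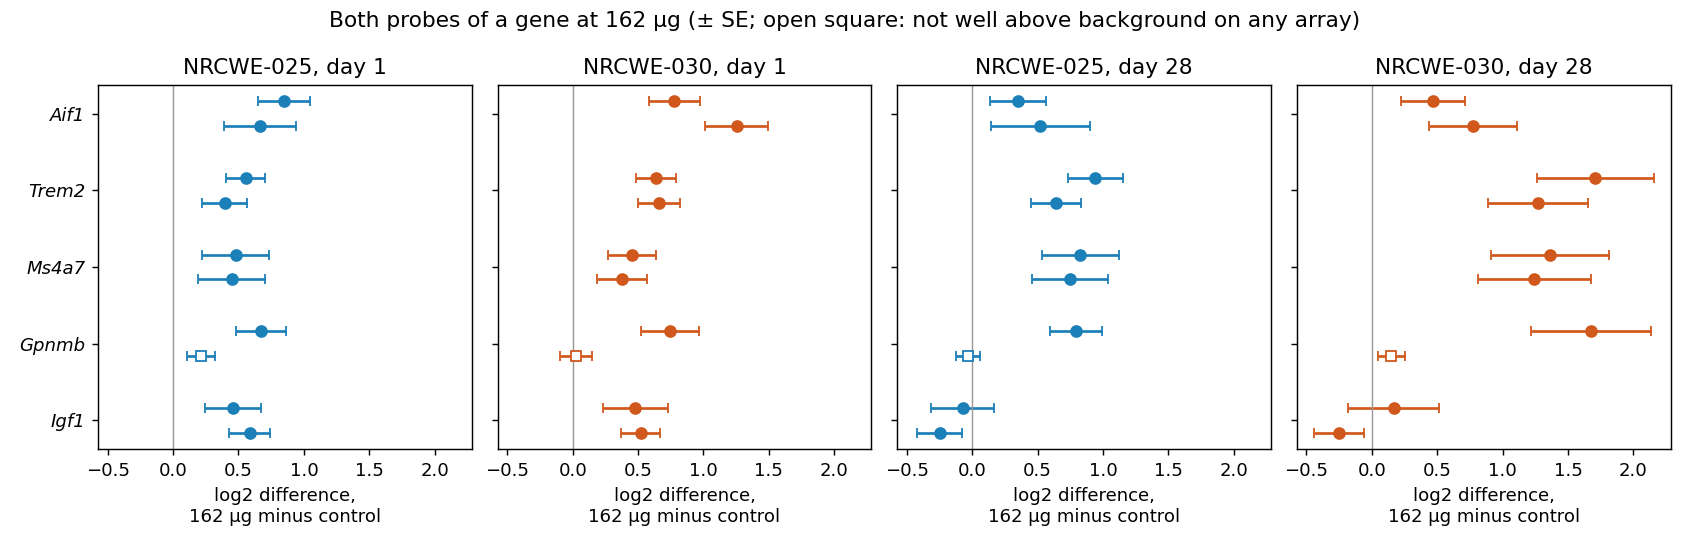
Log2 difference of 162 µg from control (horizontal axis) with its SE for each probe of the 5 genes that had 2 probes, by NM and day. The open squares are the Gpnmb probe that was not well above background on any array, which lies near 0 beside the bright probe at 1.67 for NRCWE-030 on day 28.

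The other genes at 162 µg of NRCWE-030 on day 28 gave 0.89 ± 0.37 for Ctsk, 0.71 ± 0.29 for Ms4a6d, 0.62 ± 0.28 for Aif1 and 0.61 ± 0.14 for Itgax (SE; adjusted p = 0.598, 0.595, 0.636 and 0.112). Itgax had the smallest adjusted p of the 10, with arrays at 2.95, 3.40, 3.18, 2.80 and 3.59 against controls of 2.42 to 2.88. With slide as a random block it was called (0.61, adjusted p = 0.0356). Lgals3 gave 0.24 ± 0.21, Apoe 0.23 ± 0.13 and Igf1 -0.04 ± 0.26 (SE; adjusted p = 0.841, 0.719 and 0.986).

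The spread was shared between genes. At 162 µg of NRCWE-030 on day 28, replicate 5 read highest in 8 of the 10 genes and lay above all controls in 10 of 10, replicate 2 in 9 of 10, and replicate 4, lowest in 9 genes, in 1 of 10. At 54 µg, replicates 1, 2 and 3 lay above all controls in 8, 8 and 7 genes and replicates 4 and 5 in 2 each. The share of all genes above all controls on single arrays was not measured. Because the genes moved together, these counts are not independent. Replicates 1, 2 and 3 at 54 µg were hybridised on slides that also held a control array of the same day, and replicates 4 and 5 on slides that held none. Within those 3 slides Trem2 differed from the control array by 2.20, 2.25 and 1.36 at 54 µg, and by 0.84, 2.50 and 1.55 at 162 µg. The SD of all 10 genes at 162 µg was above that of the controls, with a median over genes of 0.62 against 0.17.

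**Figure D3:**
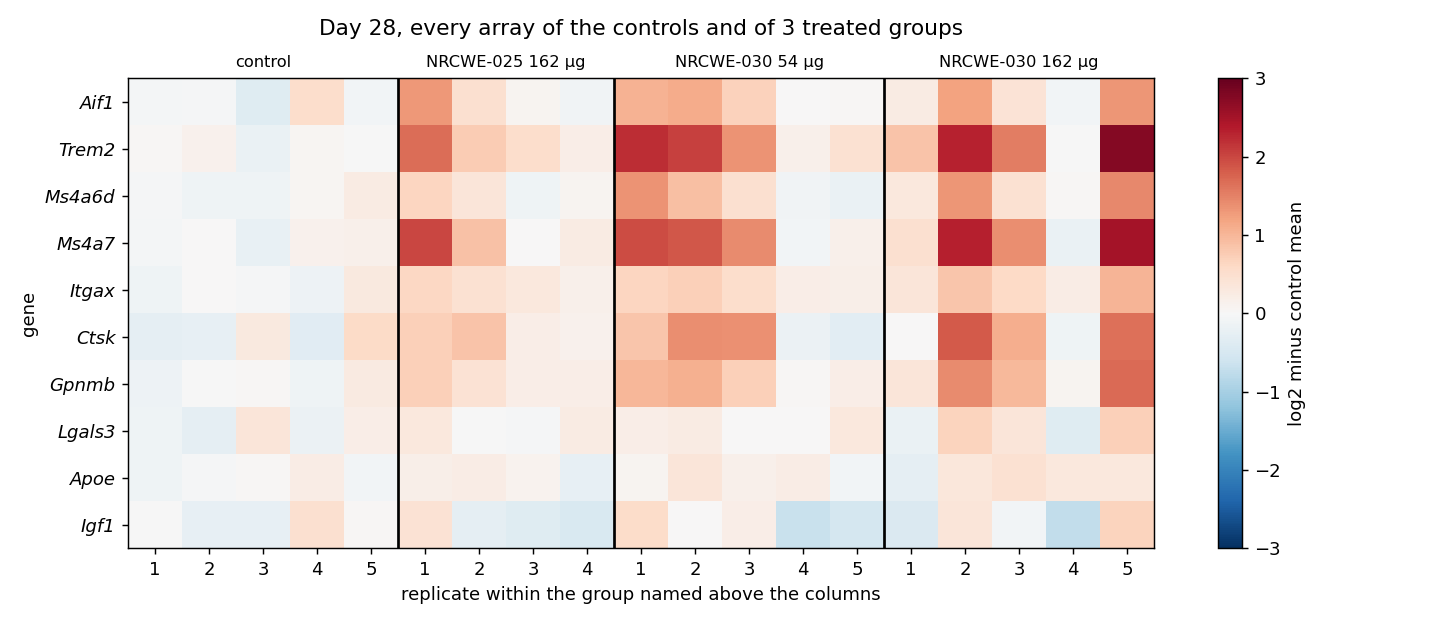
Log2 value minus the control mean of day 28 (colour) for each gene (rows) on each array (columns) of the controls and 3 treated groups. Replicates 2 and 5 at 162 µg of NRCWE-030 are high in Trem2, Ms4a7, Ctsk and Gpnmb together, while replicate 4 of that group looks like the controls.

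Markers of other tissues moved with some of these arrays. The piece of lung can carry heart muscle, and the mean level of 7 heart muscle markers (6 of them well above background on at least 35 arrays) ran from 0.49 to 3.51 at 162 µg of NRCWE-030 on day 28, against 1.37 to 3.12 in the controls. It read 1.23, 3.51, 0.62, 0.49 and 3.35 on replicates 1 to 5, so replicates 2 and 5 were high in it too. At 54 µg it read 1.89, 3.31, 2.99, 0.63 and 0.61. After subtracting group means, the correlation of heart marker level with the 10 genes over the 69 arrays ranged from -0.30 (Apoe) to 0.63 (Igf1), with Trem2 at 0.43. With the general macrophage markers the correlation ranged from 0.18 (Lgals3) to 0.85 (Aif1), with Trem2 at 0.67, and exceeded 0.5 in 4 of the 10 genes. With the monocyte markers it ranged from 0.06 (Apoe) to 0.83 (Aif1), with Trem2 at 0.69, and exceeded 0.5 in 5 genes. Apoe reached 0.68 with the lung epithelial markers, and Igf1 0.59 with the fibroblast markers. The level of 11 general macrophage markers ran from 1.12 to 1.99 at 162 µg, against 1.00 to 1.47 in the controls, and 3 of the 5 arrays lay above all controls. The level of 7 monocyte markers ran from 1.51 to 2.18 against 1.43 to 1.78, a difference of 0.22, with 2 of the 5 arrays above all controls. The level of 12 neutrophil markers differed from the controls by -0.44. The part of these markers in the day 28 values was not tested.

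With NRCWE-025 at 162 µg on day 28, Trem2 and Ms4a7 stood 0.79 above control, and none of the 10 genes passed. With limma 0 of 10 genes were called at 162 µg (0.0161% of all genes), 0 of 10 at 54 µg (0.0268%), 0 of 10 at 18 µg (0.0589%) and 0 of 10 for dose (0.0268%). At an unadjusted p under 0.05 there were 5, 2, 0 and 3 genes, beside 7.23%, 7.07%, 8.89% and 5.77% of all genes. Trem2 read -0.41, -1.33, -1.55 and -1.88 at 162 µg, all 4 above the controls, where 1.15% of all genes had no overlap upwards. Its change was 0.79 ± 0.20 (SE; adjusted p = 0.324), that of Ms4a7 0.79 ± 0.29 (adjusted p = 0.576) and that of Gpnmb 0.38 ± 0.12 (adjusted p = 0.434). Replicate 1 read highest in 8 of the 10 genes, and without it Trem2 came to 0.50 and Ms4a7 to 0.38. The heart muscle markers were also highest on replicate 1, at 3.67. Igf1 at 54 µg stood below control, at -0.35 ± 0.17 (SE; adjusted p = 0.706).

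**Figure D4:**
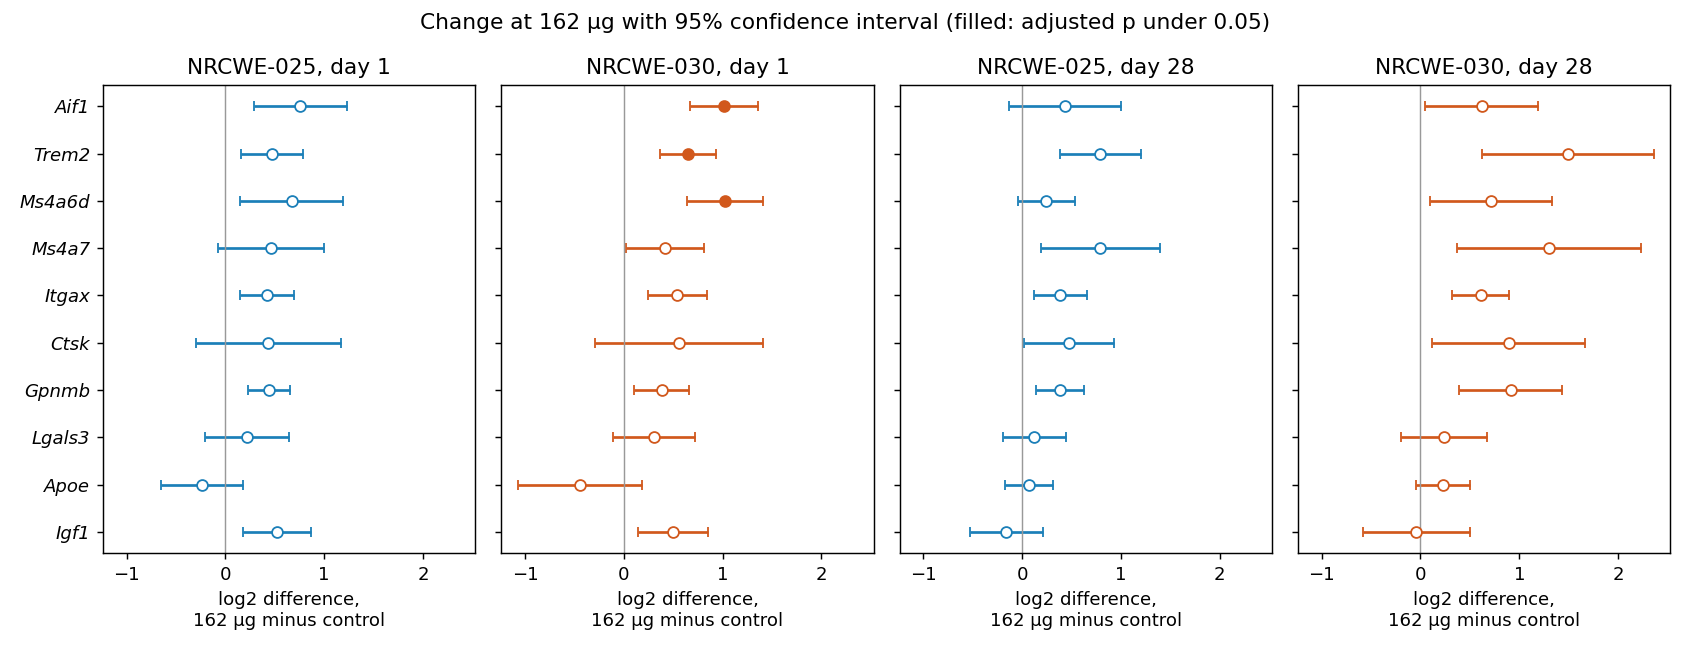
Log2 difference of 162 µg from control (horizontal axis) with its 95% confidence interval from limma for the 10 genes, by NM and day; filled points had an adjusted p under 0.05. The filled points are Aif1, Trem2 and Ms4a6d for NRCWE-030 on day 1, and the intervals are widest for Trem2 and Ms4a7 with the same NM on day 28.

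The NMs were compared at matched doses in a fit of all 14 groups. On day 1, 0 of 10 genes differed between NRCWE-030 and NRCWE-025 (0.155% of all genes were called), and 0 had an unadjusted p under 0.05 (7.78% of all genes). At 162 µg the difference was 0.26 for Aif1 (95% interval -0.25 to 0.77), 0.35 for Ms4a6d (-0.16 to 0.86) and 0.17 for Trem2 (-0.39 to 0.74), so the intervals reach both sides of 0. The calls for NRCWE-030 beside none for NRCWE-025 do not show that the NMs differed.

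On day 28, 0 of 10 genes were called as well (0.241% of all genes), but 4 had an unadjusted p under 0.05 (6.29% of all genes). All 10 differences at 162 µg were towards NRCWE-030, as were 50.9% of those of all genes. Trem2 was higher with NRCWE-030 by 0.07 at 18 µg, 1.17 ± 0.28 at 54 µg and 0.70 ± 0.30 (SE) at 162 µg, with an adjusted p of 0.0811. Leaving out any 1 of 4 arrays gave a call of 1 gene: replicates 4 and 5 at 54 µg and replicate 4 at 162 µg of NRCWE-030, and replicate 1 at 162 µg of NRCWE-025. For Trem2 the slides that held both NMs gave 0.29 and 0.51 at 54 µg. At 162 µg they gave -0.77 and 2.21, so the direction was not the same within slides. On the slide with -0.77 every member but Apoe (0.09) was lower with NRCWE-030, and on the slide with 2.21 every member was higher. Ms4a7 differed by 0.99 at 54 µg and 0.51 at 162 µg (adjusted p = 0.672), and Ms4a6d by 0.64 and 0.47 (adjusted p = 0.509).

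Days were compared at 162 µg as the effect on day 1 minus that on day 28. For NRCWE-030, 0 of 10 genes were called (0.198% of all genes) and 3 had an unadjusted p under 0.05 (7.66% of all genes). Trem2 differed by -0.84 ± 0.40, Gpnmb by -0.53 ± 0.25 and Apoe by -0.67 ± 0.30 (SE; adjusted p = 0.614, 0.617 and 0.556). In all 3 the value was higher on day 28. For NRCWE-025, 0 of 10 genes were called (0.0589%) and 1 had an unadjusted p under 0.05 (10.5% of all genes), which was Igf1 with 0.68 ± 0.30 (SE; adjusted p = 0.398). Between the controls of the 2 days 0 of 10 genes were called (0.0375%) and 0 had an unadjusted p under 0.05 (8.51% of all genes). The differences of day 28 from day 1 ranged from -0.30 for Trem2 to 0.38 for Igf1.

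Across all 14 groups the highest mean was that of 162 µg in each of the 10 genes, and its range over groups went from 0.61 in Igf1 to 1.65 in Ms4a7. NRCWE-030 at 162 µg on day 28 was highest for Trem2 (-0.60), Gpnmb, Ctsk, Ms4a7 and Apoe, and the same dose on day 1 was highest for Aif1 (2.16), Lgals3, Ms4a6d and Itgax (3.21), while Igf1 peaked with NRCWE-025 at 162 µg on day 1. The lowest mean was that of the day 1 controls for Aif1 and of the day 28 controls for Trem2, Gpnmb and Itgax. For Apoe it was NRCWE-030 at 162 µg on day 1 (4.89). When the 14 means were put in order, the gap between neighbours exceeded the larger of their SDs in 1 of 13 steps for Trem2 and in 0 of 13 for each other gene. That step lay between NRCWE-025 at 162 µg on day 1 and NRCWE-030 at 18 µg on day 1, and measured 0.33.

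Most of the genes moved together from array to array. After group means were subtracted, Pearson's r over the 69 arrays had a median of 0.58 over the 45 pairs and exceeded 0.5 in 26 of them. The highest was 0.90, between Trem2 and Ms4a7, followed by 0.79 between Trem2 and Gpnmb and 0.78 between Aif1 and Ms4a7. Apoe stood outside, with -0.29 against Ms4a6d and -0.18 against Gpnmb. These values describe arrays that share slides, a reference RNA and the make-up of the piece of lung. Pairs within other sets of genes were not measured, so the values show no trait particular to this set.

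**Figure D5:**
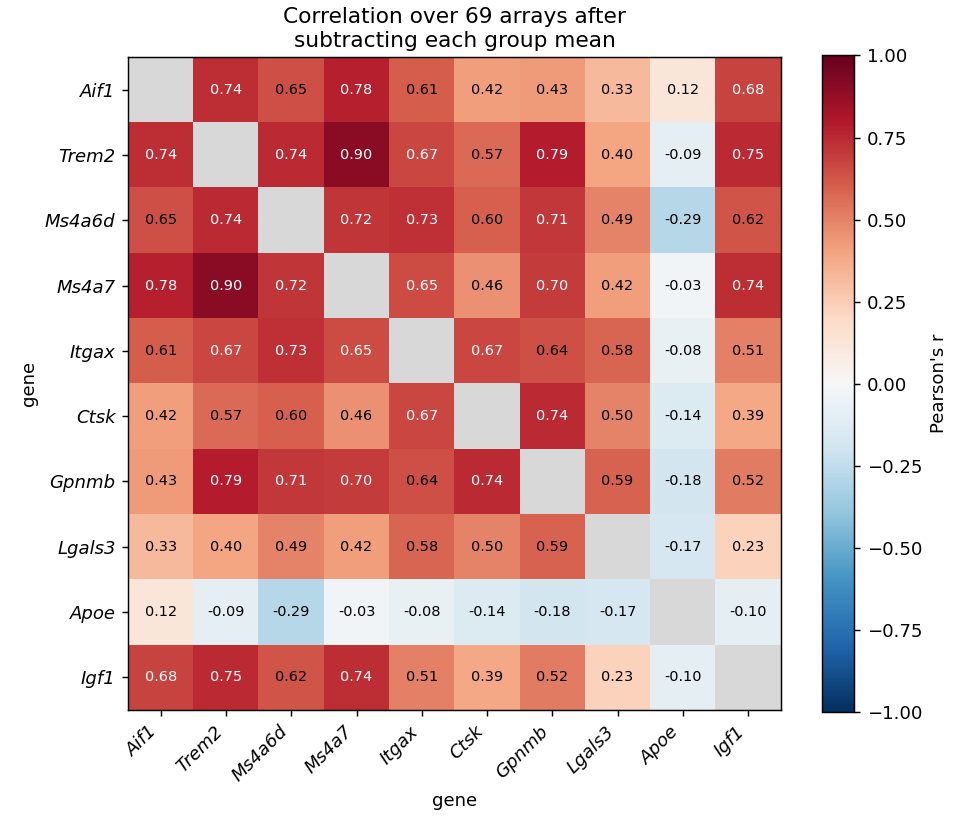
Pearson's r (colour and number) between each pair of genes over 69 arrays after subtracting each group mean. Trem2 and Ms4a7 have the highest value, 0.90, and Apoe is near 0 or below with most others.

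Among 13715 other genes that were well above background on at least 35 arrays, the 3 most like each member over all 69 arrays were named. Trem2 lay closest to Oas1f (r = 0.87), Ifi27l2a (0.86) and Lgals3bp (0.85), and Ms4a7 to Ifi27l2a, Slamf7 and Oas1f (0.85 to 0.87). Oas1f and Ifi27l2a belong to families of interferon-induced genes. Aif1 lay closest to Fcgr1 (0.86), an Fc receptor of macrophages and monocytes, then to Wfdc17 and Fcer1g. Ms4a6d and Itgax both had Bcl2a1b first (0.86 and 0.90), and Ms4a6d was then followed by the chemokines Ccl7 and Ccl2 (0.86 and 0.84), Itgax by Cd300lf and Clec4n. Gpnmb lay closest to Zranb3, Lilrb4a and Ly6f (0.79 to 0.81), Ctsk to Slc26a4, Noxo1 and Bcl2a1b (0.71 to 0.76), Lgals3 to C3, Sod2 and Tnip1 (0.70 to 0.73), and Igf1 to Ccl8, Gatm and Cpxm1 (0.72 to 0.78). Apoe lay closest to Pltp (0.84), a phospholipid transfer protein, and then to Hbb-bt and Alas2 (0.81 and 0.78), genes of red blood cell precursors.

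Of 29 lysosomal enzymes and membrane proteins, 2 were called for dose with NRCWE-030 on day 1, beside 0.954% of all genes. They were Ctsc (cathepsin C, 0.91 ± 0.19 at 162 µg) and Cd63 (a membrane protein of late endosomes and lysosomes, 0.78 ± 0.12; SE; adjusted p of the F-test 0.0427 and 0.00259). At 162 µg 3 were called (1.69% of all genes), with Gusb added, and 20 of the 29 lay above control, as did 51.3% of all genes (median 0.08, all genes 0.0045). For NRCWE-025 at 162 µg on day 1, 0 of 29 were called with limma and 4 had an unadjusted p under 0.05, beside 12.3% of all genes. On day 28 the call at 162 µg of NRCWE-030 was Atp6v0d2, a subunit of the proton pump that acidifies lysosomes (0.67 ± 0.12, adjusted p = 0.0186), beside 0.0965% of all genes, and 24 of 29 lay above control (median 0.16), as did 49.3% of all genes. Ctsc stood at 0.74 ± 0.15 there (adjusted p = 0.0574).

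Of 18 partners and lipid-handling genes of activated macrophages that were tested, 3 were called at 162 µg of NRCWE-030 on day 1, beside 1.69% of all genes. They were Lgals1 (galectin-1, 1.13 ± 0.26), Lgals3bp (a galectin-3 binding protein, 0.86 ± 0.21) and Fcer1g, an adaptor like Tyrobp (SE; adjusted p = 0.0265, 0.0418 and 0.042). None was called by the F-test for dose (0.954% of all genes). The list had a median of 0.07 there and 0.20 on day 28, when 0 of 18 were called with limma at 162 µg (0.0965% of all genes) and 7 had an unadjusted p under 0.05 (7.51% of all genes). Of 6 MS4A relatives none was called at 162 µg of NRCWE-030 on day 1 (3 had an unadjusted p under 0.05, beside 12.9% of all genes), with 0.74 ± 0.34 for Ms4a6b and 0.55 ± 0.20 for Ms4a4c (SE; adjusted p = 0.361 and 0.199). Gusb, Fcer1g and Atp6v0d2 were named after their values were seen, as were the markers called only at 162 µg below.

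Markers of other cells moved with the day 1 rise at 162 µg of NRCWE-030. Of all genes, 1.22% were called higher in this contrast with control, 1.69% in either direction, and 0.954% by the F-test for dose. Of 12 neutrophil markers 3 were called higher, Il1r2 (1.36), Csf3r (1.25) and Trem1 (0.60). Of the 12, 9 lay above control (median 0.34), with Retnlg (-0.34), S100a9 (-0.20) and Ngp below, and the mean level of the list ran from 1.67 to 2.26 against 1.39 to 1.83 in the controls. Ngp and Camp, 2 neutrophil granule genes, were well above background on 20 and 33 of the 69 arrays. Of 7 monocyte markers Plac8 was called higher (0.93), Ly6i gave 0.62, and the level of the list ran from 1.57 to 2.06, above all controls (1.19 to 1.54) on 5 of 5 arrays. Of 11 general macrophage markers Fcgr1 was called higher (0.95 ± 0.20, adjusted p of the F-test 0.0146), while 6 of the 11 lay above control (median 0.01). The level of that list differed by 0.23, with 2 of 5 arrays above all controls. Of 10 alveolar macrophage markers Cidec was called lower (-1.36) and Ear1 gave -1.53 (adjusted p = 0.0522). Marco (0.40), Car4 (0.30) and Mrc1 (0.06) of the same list lay above control. The mean level of the list differed by -0.48, below all controls on 4 of 5 arrays. Of 6 fibroblast markers Pdgfra was called lower (-0.55), and Dcn by the F-test for dose (-0.94 at 162 µg, adjusted p = 0.0486), while 3 of the 6 lay above control, Col3a1 (0.57), Col1a2 (0.28) and Col1a1 (0.21). The level of that list differed by -0.12. The heart muscle and fat cell lists differed from the controls by -0.39 and -1.04, with arrays from 0.16 to 3.21 and 0.06 to 2.67, and 0 of 7 and 0 of 4 were called with limma (0 each at an unadjusted p under 0.05). Of the 10 dendritic, 9 B and T cell and 7 lung epithelial markers none was called, with 2 of each list at an unadjusted p under 0.05 (12.9% of all genes), and mean levels that differed from control by 0.05, -0.19 and -0.35. The 2 largest differences in each of these lists without a call were 0.53 for Batf3 and -0.27 for H2-Ab1, -0.78 for Ms4a1 and -0.52 for Cd79b, and -0.67 for Sftpc and -0.53 for Scgb1a1. In heart muscle they were -1.19 for Myl7 and -0.53 for Tnnt2, and in fat cells -2.76 for Cfd and -0.78 for Adipoq. With NRCWE-025 at 162 µg on day 1, the alveolar macrophage list differed from control by -0.50 and none of its markers was called with limma (4 of 10 at an unadjusted p under 0.05, beside 12.3% of all genes). On day 28 the neutrophil marker Mmp9 was called lower with NRCWE-030 (-1.11 ± 0.16 at 162 µg, adjusted p = 0.00289), beside 0.0965% of all genes called. The part of these markers in the rise of Aif1, Ms4a6d and Trem2 was not tested.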

How the data were processed

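The authors deposited 1 scanner file per array (Agilent Feature Extraction 11.0.1.1, per the file headers) and a series matrix. From the scanner files the median signal and local background of each spot were used, a deposited linear intensity, together with 0 or 1 flags of outliers and of signal above background and, as an alternative, the deposited log10 ratio of Cy5 to Cy3. The deposited series matrix holds log2 values that the authors normalised by LOWESS; against loess values without background correction its slope was 0.993 and its correlation 0.996 (medians over arrays). From this comparison its values were read as log2 of lung over reference.

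Where the scanner marked a local background as an outlier, the median of the unmarked ones on that array took its place. The correction without this step is 1 of the alternatives. Background was then corrected by normexp with an offset of 50, followed by loess within each array, with no scaling between arrays (limma 3.58.1 and R 4.3.3, with the data.table package, version 1.17.8; plots with matplotlib 3.10.9 and pandas 2.3.3 in Python 3.11.15). Of 45018 spots per file 43379 were not controls, and spots marked as outliers were left out on their array. Spots of a probe, then probes of a symbol, were combined by the median. Of 41174 probes 27484 (66.8%) matched a symbol in RefSeq (GRCm38.p6), and 93 of 18753 symbols lacked a value on an array, leaving 18660. The array design refers to an earlier assembly, so no probe positions are given.

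Groups came from the labels. Each NM and day was fitted in limma with its controls (F-test for dose, each dose against control); 1 fit of all groups compared NMs and days. All tests were two-sided, adjusted by Benjamini-Hochberg, and called under 0.05. No other tool was run. Scripts were tested on simulated data. From lists other than the members, genes were named when called for dose (at most 4 per list and fit), otherwise the 2 that changed most on day 1 at the top dose of NRCWE-030. For likeness, the 3 other genes with the highest correlation were named. Members and lists were chosen with earlier results of these data known. Replicates were numbered in accession order. Alternatives were the background correction, the 2 deposited processed values, scaling between arrays, a filter on dim probes, the mean over probes, slide and scan day as blocks, and leaving out each array.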

Additional observations from a re-analysis of the deposited data

Results flagged for a closer look

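Of 140 pairs of gene and group, 9 held an array whose gap to its nearest neighbour took more of the group's range than Dixon's 95% limit allows, where chance gives about 1 in 20, or 7. No cause was tested. On day 1 these were Gpnmb at 162 µg of NRCWE-030 (replicate 5 at -1.31, the others between -1.71 and -1.60), Ms4a6d in the same group (replicate 3 at 1.16, the others 1.83 to 2.04), Ctsk at 18 µg (replicate 1 at 0.52, the others 1.41 to 1.63) and at 162 µg of NRCWE-025 (replicate 1 at 0.96, the others 2.49 to 2.78), Ms4a7 at 54 µg of NRCWE-030 (replicate 5 at 0.17, the others -0.69 to -0.53) and Itgax at 18 µg of NRCWE-025 (replicate 5 at 2.42, the others 2.74 to 2.81). On day 28 they were Ms4a7 at 54 µg of NRCWE-025 (replicate 3 at -0.59, the others -0.15 to 0.01), Igf1 at 18 µg of NRCWE-030 (replicate 1 at 0.51, the others -0.44 to -0.18) and Apoe at 162 µg of NRCWE-030 (replicate 1 at 5.29, the others 5.85 to 5.99). No gene had every array of 1 group above and every array of the matching group below its control mean.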

How the results depend on the processing

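The blocks for slide and scan day moved the most counts of called genes. With slide as a fixed block the counts were 0 at 162 µg and 1 for dose with NRCWE-030 on day 1 (3 in each without a block), and 1 at 54 µg and 1 for dose with NRCWE-030 on day 28. With scan day as a fixed block they were also 0, 1, 1 and 1. With slide as a random block 2 genes were called at 162 µg and 1 for dose with NRCWE-025 on day 1, and 1 at 162 µg and 1 for dose with NRCWE-030 on day 28. The 3 calls at 162 µg of NRCWE-030 on day 1 were kept with that random block. The scanner log ratio gave 1 gene between NMs on day 28. The cause was not tested. Leaving out 1 array gave 1 to 3 genes for dose and 3 to 4 at 162 µg with NRCWE-030 on day 1, 0 to 1 for dose and at 162 µg with NRCWE-025 on day 1, 0 to 1 between NMs on day 28, and 0 elsewhere. The lower count for dose came without replicate 1, 2 or 5 at 162 µg of NRCWE-030. Trem2 lost its call for dose in 13 of these 20 fits and under 4 alternatives. Itgax at 162 µg of NRCWE-025 on day 1 reversed with the plain background correction (-0.051, with 0.42 otherwise). Alternatives shifted the median of all genes by at most 0.0386. No paired analysis was possible because the replicate numbers only follow accession order. A ratio to a reference gives no level between genes, and dim probes such as that of Gpnmb hold only a bound.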
